A study of Mus musculus with 69 samples.

Results

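The comparison described here set the ovaries of young Zeb1_200M females against those of young WT females, over all genes measured. The members are the 4 Zeb1_200M and the 4 WT ovary libraries of the young cohort, 8 of the 69 libraries of the study, which sequenced RNA from pituitary, hypothalamus and ovary. Zeb1_200M (200M below) mice carry base changes on each Zeb1 allele that disrupt the sites for miR-200a and miR-200b in the Zeb1 3′ UTR, and WT mice carry the unchanged gene. All 8 animals were virgin C57BL/6J females 8 to 12 weeks old, taken at the first proestrus seen by vaginal cytology. The changes are in the germline, so every tissue of a 200M animal carries them, and the virgin cohort was bred from both embryonic stem cell clonal lines, with littermates housed together. Which line gave which library is not stated in the sources used here. Each library was made from ovary tissue of 1 animal, so a lower value can mean fewer cells of a type or less RNA per cell, and these cannot be told apart. A library is called by its genotype and replicate number, and the sources used here state no other meaning of the number. The fits of all 12 young ovary libraries add the 4 libraries of Zeb1_200H (200H below) females, which carry 1 mutated allele. Those females were of the same cohort, 8 to 12 weeks old. WT and 200M ovaries of an older cohort, 28 to 36 weeks old, were compared separately.

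The ovary holds follicles, in which granulosa and theca cells surround an oocyte. At each cycle the pituitary releases a surge of luteinizing hormone that ruptures the ripe follicles and turns what is left of them into corpora lutea, which make progesterone from cholesterol. Cells of the corpus luteum express Star, which brings cholesterol into mitochondria, Cyp11a1, which cleaves its side chain, and the receptors for luteinizing hormone, prolactin and prostaglandin F2 alpha. A corpus luteum outlasts the cycle that formed it, so a cycling ovary at proestrus still holds those of earlier cycles. ZEB1 is a transcription factor that binds E-boxes and represses epithelial genes, and the miR-200 family lowers ZEB1 in epithelial cells.

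The 5 mature miR-200 family members are shown because their seeds pair with the unchanged sites, which the base changes disrupt. The capitals mark the seed, bases 2 to 8, and the sequences are those of RefSeq on GRCm38.p6. One seed is shared by 3 members:
miR-200b-3p: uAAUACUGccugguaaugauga
miR-200c-3p: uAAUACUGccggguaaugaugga
miR-429-3p: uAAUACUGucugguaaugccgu
The other is shared by the remaining 2 members:
miR-200a-3p: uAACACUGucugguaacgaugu
miR-141-3p: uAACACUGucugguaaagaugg
The miR-200b, miR-200a and miR-429 genes lie together on chromosome 4, where the mature forms are at chr4:156055685-156055706, chr4:156054911-156054932 and chr4:156053916-156053937, and the other pair lies on chromosome 6. The annotated chromosome 4 host transcript Gm13648 was near the detection limit in young ovary, at 2.91, 1.66, 2.88 and 3.25 counts per 1000000 (CPM) in WT and 4.41, 3.74, 1.04 and 1.04 CPM in 200M.

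The 8 libraries held 6337205 to 12896366 counts each, of which 7.55 to 9.75% came from mitochondrial genes. Zeb1 RNA was at 198, 186, 215 and 195 CPM in WT and 198, 192, 181 and 193 CPM in 200M. The groups overlapped, and the log2 fold change of -0.06 ± 0.06 (standard error, SE) did not pass the test (adjusted p = 0.722). The gene is therefore no check of the labels here, since the mutation leaves the transcript in place. Zeb2, the related repressor, was at 999.5 ± 56.6 CPM (SD, n = 4) in WT and 821 ± 131 CPM in 200M (log2 fold change -0.29 ± 0.10, adjusted p = 0.142). The tissue label was borne out by its markers in both groups: the granulosa markers Inha and Foxl2 were at 739 to 889 and 86.4 to 103 CPM in WT and at 770.0 to 1105 and 86.6 to 136 CPM in 200M, and the oocyte markers Zp3 and Gdf9 were at 29.9 CPM or more in all 8 libraries.

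Some libraries stood apart before any test, 200M replicates 2 and 4 among them. On the first principal component of the log CPM values, which took 29.2% of the variance, 200M replicate 2 lay at -16.3, within the WT range of -25.9 to -8.24, while the other 200M libraries lay at 15.7, 27.3 and 48.9. For the luteal genes described below it lay between WT and the other 200M libraries, with a list median of -0.303 on the log2 scale against the WT mean, where WT spanned -0.117 to 0.138 and the other 200M libraries -0.97 to -0.668. Results are given with and without it. Because it is left out for its luteal RNA, the values of luteal genes without it, and of genes that follow or mirror the same pattern over libraries, are a description. They are no support for a fall or a rise. 200M replicate 4 had little RNA of oviduct genes. Ovgp1, which encodes the oviduct glycoprotein, was at 456 CPM in 200M replicate 2 and at 11.5 CPM in 200M replicate 4, against 344, 294, 176 and 441 CPM in WT, and Foxj1, a ciliated cell marker, was at 2.44 CPM in replicate 4 and 21.6 CPM or more in the others. The summed CPM of the 13 oviduct markers was 657, 564, 332 and 843 in WT and 658, 811, 721 and 67.8 in 200M. On the second principal component (22.2% of the variance), WT replicate 3 lay at -40.9 and the other WT libraries at 7.62 to 17.9. On the same component 200M replicate 3 lay at 34.1 and the other 200M libraries at -21.8 to -3.33.

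With all 8 libraries, 497 of 19250 genes tested were called changed (adjusted p under 0.05, edgeR quasi-likelihood F test with Benjamini-Hochberg adjustment over all genes tested), which is 2.58%. Of these, 328 (1.7%) were lower and 169 (0.878%) higher in 200M. Without 200M replicate 2, 1214 of 19574 genes were called (6.2%), 742 lower (3.79%) and 472 higher (2.41%). Of the 497 genes, 492 were also called without that library, all 492 in the same direction, and 722 genes were called only without it. The 4 200M libraries all lay below the 4 WT libraries in 4.76% of the genes tested and all above them in 4.72%, and without replicate 2 these shares were 8.7% and 9.32%. Leaving out any other single library gave between 112 and 403 calls, as the plot of calls by fit shows. In the fit of all 12 young ovary libraries, 87 of 20347 genes were lower and 22 higher. The median log2 fold change over all genes tested was 0.006 in the fit of 8.

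**Figure D1:**
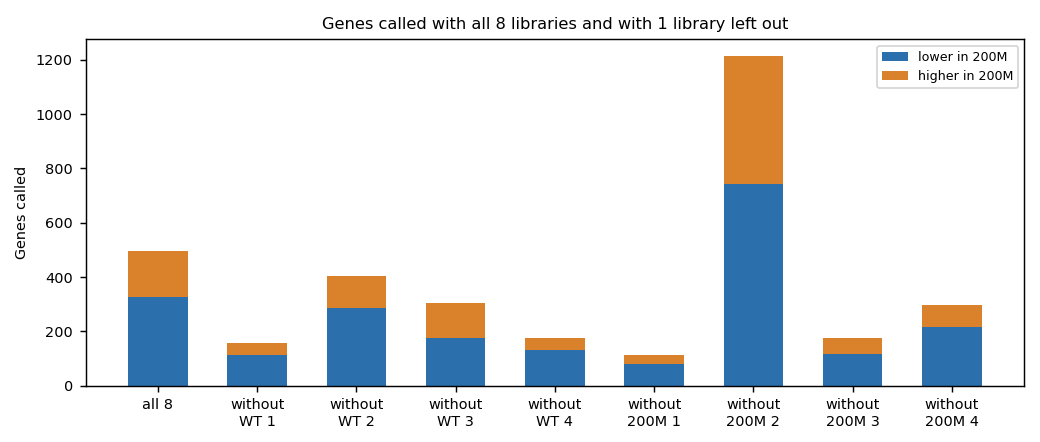
Number of genes called (vertical axis) in young ovary, 200M against WT, with all 8 libraries and with each library left out in turn (horizontal axis), split into genes lower (blue) and higher (orange) in 200M. The count rises from 497 to 1214 without 200M replicate 2 and falls to 112 without 200M replicate 1.

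Genes of the corpus luteum were lower in 200M. Of the 20 luteal genes, all of them tested, 11 fell in the fit of 8 libraries, against 1.7% of all genes. Their median log2 fold change was -0.695 with 8 libraries, beside 0.006 over all genes. Described without 200M replicate 2, 16 were past the threshold (3.79% of all genes) and the median was -0.841. In the fit of all 12 young ovary libraries, with the 200H ones among them, 3 passed, beside 87 of 20347 genes lowered over all. The 4 200M libraries all lay below WT for 14 of the 20, against 4.76% of all genes. Sfrp4, Runx2, Cyp11a1 and Star were named by the study from these libraries, so the direction of the list is not independent evidence. Summed over the list, the luteal genes were at 12477, 9616, 12002 and 11731 CPM in WT and 8861, 10420, 6410 and 9507 CPM in 200M, sums of which Hsd3b1 and Lhcgr made up more than any other member.

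Several luteal genes were nearly lacking in 3 of the 4 200M ovaries. Sfrp4 (ENSMUSG00000021319, chr13:19623104-19632994, plus strand, mm10), which encodes a secreted Wnt-binding protein found in luteal cells, was at 361, 253, 333 and 346 CPM in WT. The 200M libraries 1, 3 and 4 were at 7.03, 7.32 and 10.6 CPM, and 200M replicate 2 at 234 CPM. Every 200M library lay below the lowest WT library, but replicate 2 stood at 72.2% of the WT mean and the other 3 at 2.57%. The log2 fold change was -2.28 ± 0.81 with all 8 libraries (adjusted p = 0.171) and, as a description, -5.28 ± 0.16 without replicate 2.

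Akr1c18 (ENSMUSG00000021214, chr13:4132615-4150654, minus strand), the 20-alpha-hydroxysteroid dehydrogenase that inactivates progesterone in the regressing corpus luteum, was at 81.4, 106, 75.2 and 68.2 CPM in WT. It was at 0.596, 0.747 and 0.464 CPM in 200M replicates 1, 3 and 4, which rest on 5, 5 and 4 counts, and at 24.4 CPM in replicate 2. The groups did not overlap, and the gene passed with all 8 libraries at -3.49 ± 0.65 on the log2 scale (adjusted p = 0.0152), beside -7.10 ± 0.24 without replicate 2. It did not pass with DESeq2 (adjusted p = 0.0835), in the fit of all 12 young ovary libraries (adjusted p = 0.0775), without 200M replicate 1 (adjusted p = 0.0564) or without 200M replicate 3 (adjusted p = 0.0567).

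Ptgfr (ENSMUSG00000028036, chr3:151796502-151837630, minus strand), the prostaglandin F2 alpha receptor through which luteal regression is started, was at 203, 128, 232 and 214 CPM in WT, at 7.27, 7.47 and 7.19 CPM in 200M replicates 1, 3 and 4, and at 100.4 CPM in replicate 2. Its log2 fold change was -2.60 ± 0.65 in the fit of 8 (adjusted p = 0.0505) and -4.74 ± 0.20 without replicate 2. Runx2 (ENSMUSG00000039153, chr17:44495987-44814797, minus strand), a transcription factor induced as follicles luteinize, was at 217, 153, 169 and 158 CPM in WT, 16.2, 18.1 and 15.3 CPM in the same 3 libraries and 117 CPM in replicate 2 (log2 fold change -2.02 ± 0.51, adjusted p = 0.052, and -3.41 ± 0.13 without replicate 2). For both genes the 200M libraries all lay below WT, while the test of 8 libraries just missed the threshold.

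Star (ENSMUSG00000031574, chr8:25806555-25815982, plus strand) varied among the WT ovaries, at 246, 142, 124 and 109.8 CPM. The 200M libraries 1, 3 and 4 were at 35.5, 28.5 and 31.4 CPM and replicate 2, at 118 CPM, lay within the WT range. Star missed the threshold with all 8 libraries (log2 fold change -1.52 ± 0.39, adjusted p = 0.0559) and stood at -2.29 ± 0.23 without replicate 2.

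**Figure D2:**
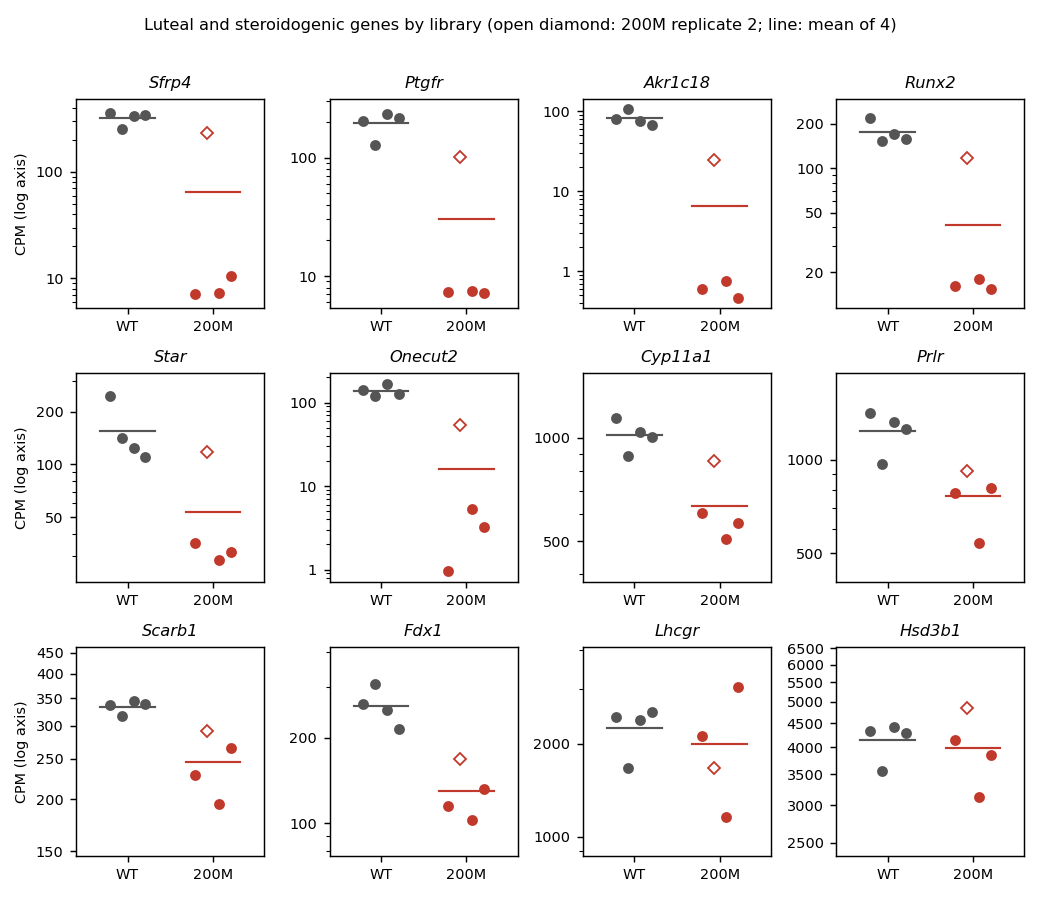
CPM (vertical axis, log scale) of 12 luteal and steroidogenic genes in each WT and 200M library of young ovary, with the mean of 4 as a line and 200M replicate 2 as an open diamond. For Sfrp4, Ptgfr, Akr1c18, Runx2 and Onecut2 the other 3 200M libraries lie far below both WT and replicate 2, whereas Lhcgr and Hsd3b1 overlap between the groups.

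Genes of progesterone synthesis fell by smaller factors. Cyp11a1 (ENSMUSG00000032323) was at 1145, 886, 1043 and 1005 CPM in WT and 605, 858, 508 and 566 CPM in 200M, with no overlap, although 200M replicate 2 lay only just below the lowest WT library. It fell by 0.69 ± 0.13 on the log2 scale with all libraries (adjusted p = 0.0185). Its electron donors fell with it: Fdx1, ferredoxin, from 259 ± 39.1 CPM in WT to 129.7 ± 28.7 CPM in 200M (log2 fold change -0.996 ± 0.14, adjusted p = 0.00435), and Fdxr, ferredoxin reductase, from 48.0 ± 1.99 to 33.6 ± 5.94 CPM (-0.51 ± 0.11, adjusted p = 0.0256). Scarb1, the receptor that takes up cholesterol from high density lipoprotein, was at 336, 318, 344 and 338 CPM in WT and 228, 292, 195 and 266 CPM in 200M, without overlap (-0.45 ± 0.10, adjusted p = 0.0335). Gm42633, a transcript annotated within Scarb1 on the same strand, fell too (-1.14 ± 0.14), and reads of the pair may not be separable. Hsd3b1, which converts pregnenolone to progesterone and is also made by theca and interstitial cells, overlapped between groups, at 4327, 3550, 4423 and 4280 CPM in WT and 4138, 4851, 3123 and 3843 CPM in 200M (-0.06 ± 0.11, adjusted p = 0.86).

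Of the hormone receptors, Prlr, the prolactin receptor that sustains the rodent corpus luteum, fell from 1239 ± 191 CPM in WT to 763 ± 159.7 CPM in 200M (-0.70 ± 0.14, adjusted p = 0.0213). Lhcgr, the luteinizing hormone receptor, which ripe granulosa and theca cells also carry, was at 2435, 1671, 2375 and 2528 CPM in WT and 2115, 1665, 1159 and 3037 CPM in 200M. The 200M libraries spread on either side of WT (-0.18 ± 0.22, adjusted p = 0.755; without replicate 2 -0.11 ± 0.22, adjusted p = 0.849). The cell cycle inhibitors that luteinizing cells gain were lower, Cdkn1a (-0.90 ± 0.20, adjusted p = 0.0322) and Cdkn1b (-0.63 ± 0.13, adjusted p = 0.0218). Hsd17b7, Idh1 and Parm1 were also among the 11 luteal genes that fell. The genes past the threshold only without 200M replicate 2 were Sfrp4, Runx2, Ptgfr, Star and Runx1. Hsd3b1, Lhcgr and Cebpb (-0.25) were called in neither fit. Of the 20 luteal genes, 19 had a log2 fold change below 0 with all libraries. The remaining 1 was above 0 at an unadjusted p under 0.05 (edgeR, all libraries) and was called in neither fit.

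The wider steroid and cholesterol lists had few members called that were not also luteal genes. Among 28 steroid enzyme and regulator genes, 5 fell and 3 rose with all libraries, against 1.7% and 0.878% of all genes, and 7 and 3 of 27 passed without replicate 2 (3.79% and 2.41%). With all 12 young ovary libraries 2 fell and none rose by edgeR, beside 87 and 22 of 20347 genes. In that fit 3 were higher at an unadjusted p under 0.05. All 5 that fell (Akr1c18, Fdx1, Hsd17b7, Cyp11a1 and Fdxr) are on the luteal list too. The 3 that rose were Akr1c14, a 3-alpha-hydroxysteroid dehydrogenase (0.45 ± 0.11), Nr5a2, a nuclear receptor of granulosa and luteal cells (0.39 ± 0.10), and Cyb5a, cytochrome b5 (0.33 ± 0.08). The enzymes of the follicle did not pass: Cyp19a1, the aromatase of granulosa cells, was at 49.8, 55.4, 75.2 and 64.8 CPM in WT and 50.4, 54.5, 33.0 and 72.3 CPM in 200M, and Cyp17a1, the androgen enzyme of theca cells, at 142, 275, 109.8 and 129.8 CPM in WT and 128, 136, 154 and 229.7 CPM in 200M. Of 41 cholesterol genes, 4 fell (against 1.7% of all genes; 7 lower and 1 higher passed without replicate 2): Sc5d, which acts late in cholesterol synthesis (-0.60 ± 0.10), Hsd17b7 (-0.83 ± 0.14), Scarb1, and Plin2, a lipid droplet coat protein (-0.51 ± 0.12).

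Wnt ligands and receptors were lower in part. With all libraries 3 of 32 Wnt pathway genes fell, against 1.7% of all genes (median -0.114). Without replicate 2, 11 lower ones passed, Sfrp4 among them, and 1 higher one, against 3.79% and 2.41% (median -0.18). Lgr5, the R-spondin receptor that marks stem cells of the ovarian surface among other sites, was at 64.5, 48.5, 60.2 and 76.9 CPM in WT, 14.5, 14.3 and 15.9 CPM in 200M replicates 1, 3 and 4 and 34.0 CPM in replicate 2. The groups did not overlap, and Lgr5 fell with all libraries (-1.64 ± 0.23, adjusted p = 0.0047), beside -2.08 ± 0.14 without replicate 2. The ligand Wnt2b was at 25.4, 22.7, 24.4 and 27.5 CPM in WT and 10.4, 15.8, 10.6 and 11.0 CPM in 200M (-1.06 ± 0.14, adjusted p = 0.00324), and Wnt5a fell from 98.6 ± 14.0 to 70.6 ± 9.09 CPM (-0.48 ± 0.11, adjusted p = 0.0346).

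Other members of the pathway followed the Sfrp4 pattern. The genes named in the rest of this paragraph were chosen after their values were seen. Wnt4, a ligand required for ovarian development, was at 70.5, 58.7, 60.0 and 61.3 CPM in WT, 16.7, 17.6 and 24.0 CPM in 200M replicates 1, 3 and 4 and 58.4 CPM in replicate 2, with log2 fold changes of -1.07 ± 0.29 (adjusted p = 0.0748) and -1.69 ± 0.12 without the last. The receptor Fzd1 was at 60.0, 37.6, 44.2 and 50.0 CPM in WT, 20.02, 18.2 and 18.8 CPM in those libraries and 47.8 CPM in replicate 2, where it lay within the WT range. Sfrp2, a relative of Sfrp4, was at 38.8, 35.3, 15.1 and 22.1 CPM in WT, 3.69, 4.18 and 3.83 CPM in those libraries and 37.5 CPM in replicate 2. Wnt10b, which was not on the list, was at 49.3, 28.0, 41.8 and 43.0 CPM in WT against 0.477, 1.64 and 0.928 CPM, and at 26.5 CPM in replicate 2 (-2.33 ± 0.68, adjusted p = 0.0891, and -5.37 ± 0.29 without replicate 2). Without replicate 2 the log2 fold change of Axin2, a common target of the pathway, was -0.51 ± 0.10, and that of the agonist Rspo2 0.85 ± 0.17.

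Beyond the lists, several genes of other functions had the same shape. Onecut2, a homeodomain transcription factor, was at 143, 121, 168 and 125 CPM in WT, 0.953, 5.38 and 3.25 CPM in 200M replicates 1, 3 and 4 and 53.6 CPM in replicate 2 (-3.04 ± 0.65, adjusted p = 0.0271, and -5.51 ± 0.25 without replicate 2). With DESeq2 and all 8 libraries Onecut2 did not pass (adjusted p = 0.0872). When the rule for naming genes was applied to the fit without replicate 2, after that library had been seen to differ, the lowered genes of smallest p also included Tnc, the matrix protein tenascin C (459, 272, 429.5 and 454 CPM in WT, 39.2, 44.4 and 46.1 CPM in 200M replicates 1, 3 and 4, 298 CPM in replicate 2). Sgk1, a kinase induced by steroids, was at 187, 134, 171 and 138 CPM in WT, 31.2, 31.4 and 27.5 CPM in those 3 libraries and 169.6 CPM in replicate 2, within the WT range. The long non-coding RNA Neat1 was at 2185, 1914, 1909 and 1775 CPM in WT, 538, 676 and 606 CPM in those 3 and 1481 CPM in replicate 2. Sema3d, a guidance ligand, and Lipg, endothelial lipase, passed in both fits, with log2 fold changes of -1.60 and -1.61 with all 8 libraries and -2.20 and -2.09 without replicate 2. D630023F18Rik was at 30.4, 23.2, 24.8 and 27.4 CPM in WT and 0.596, 1.04 and 1.39 CPM in the 3 libraries, with 18.5 CPM in replicate 2. Replicate 2 lay nearer to the WT mean than to the mean of the other 200M libraries in 5 of these 7 genes, the exceptions being Onecut2 and Lipg.

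Other lowered genes did not set replicate 2 apart to this degree. Sectm1b had the smallest p of all genes lowered in the fit of 8, at 9.57, 7.52, 11.6 and 14.0 CPM in WT and 1.19, 1.82, 1.64 and 1.62 CPM in 200M (-2.76 ± 0.24, adjusted p = 0.000276), and the estimate without replicate 2 was nearly the same (-2.86 ± 0.28). Tmem178, an endoplasmic reticulum membrane protein, was at 44.9, 28.2, 65.6 and 57.2 CPM in WT and 3.22, 9.01, 1.94 and 4.06 CPM in 200M (-3.36 ± 0.34, adjusted p = 0.000674). A730049H05Rik fell from 11.2 ± 3.75 to 1.17 ± 0.513 CPM (-3.24 ± 0.34), and the low-level transcript 7330423F06Rik, annotated on the strand of Abcb1b, from 3.10 ± 1.96 to 0.4 ± 0.319 CPM (-2.83 ± 0.57). Smaller falls with tight replicates were those of Pkhd1l1, a fibrocystin-like membrane protein (-0.86 ± 0.09), Adam19, a membrane metalloprotease (-0.77 ± 0.09), and Ly6e (-0.52 ± 0.07). Also among the 12 lowered genes of smallest p were A530020G20Rik (-1.26 ± 0.16), Gm42583, annotated within Kcnd2 (-1.49 ± 0.16), Gm45457, annotated within Sorbs2 (-0.86 ± 0.11), and Ugt1a7c (-0.78 ± 0.10), whose last exons are shared with other Ugt1a genes, so that its counts are uncertain.

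Genes higher in 200M were led by a protease inhibitor and a transcription factor. Serpina3c, a serine protease inhibitor, was at 15.3, 16.8, 14.8 and 19.8 CPM in WT and 47.3, 38.0, 36.0 and 41.1 CPM in 200M (1.28 ± 0.11, adjusted p = 0.000276). Mycl, a Myc family transcription factor, was at 34.95, 33.6, 28.3 and 34.1 CPM in WT and 65.3, 54.4, 56.0 and 61.6 CPM in 200M (0.86 ± 0.09, adjusted p = 0.000674). The groups of both genes were well separated, with replicate 2 among the other 200M libraries, and both rose by much the same factor without it (1.31 and 0.89). Gsta2, a glutathione transferase, rose from 2.42 ± 0.409 to 7.77 ± 1.40 CPM (1.67 ± 0.21), and Kcng4, a potassium channel subunit, from 3.77 ± 0.258 to 10.5 ± 3.14 CPM (1.45 ± 0.23). Other genes of smallest p were Ccdc3 (0.70 ± 0.09), the spectrin Sptb (0.56 ± 0.08), the matrix protease Adamts6 (0.54 ± 0.08), the hedgehog co-receptor Cdon (0.40 ± 0.06), the RNA-binding protein Csdc2 (0.60 ± 0.09) and Gm38243, annotated within Kcnq5 (0.74 ± 0.12). Among the largest increases were also Casr, the calcium-sensing receptor (1.47 ± 0.33), and Oit3 (1.199 ± 0.27), both under 6 CPM. Vcam1, an adhesion molecule, was among the additional genes of smallest p in the fit without replicate 2, at 38.3, 32.6, 40.7 and 35.3 CPM in WT, 75.1, 71.7 and 66.1 CPM in 200M replicates 1, 3 and 4 and 46.8 CPM in replicate 2.

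Some granulosa cell genes were higher in 200M. Of 32 on the list, 6 rose with all libraries and 8 without replicate 2, against 0.878% and 2.41% of all genes. With all 12 young ovary libraries 1 rose, beside 22 of 20347 genes. Without 200M replicate 1 the count was 3, beside 31 of 20387 genes. With all 8 the median log2 fold change was 0.211 (0.205 without replicate 2). Esr2, the estrogen receptor of granulosa cells, was at 206, 228, 232 and 171 CPM in WT and 378, 289, 352 and 352 CPM in 200M, with no overlap (0.71 ± 0.10, adjusted p = 0.00499). Kitl, the kit ligand by which granulosa cells signal to the oocyte, was at 165, 175, 169.7 and 158 CPM in WT and 264, 201, 212 and 239 CPM in 200M (0.45 ± 0.08, adjusted p = 0.0122). Bmpr1b, a receptor for bone morphogenetic proteins (0.53 ± 0.09), the protease inhibitor Serpine2 (0.45 ± 0.07), the transcription factor Foxo1 (0.44 ± 0.09) and Nr5a2 also rose. The defining markers did not all follow: Fshr (-0.17 ± 0.12, adjusted p = 0.547), Foxl2 (0.10 ± 0.12, adjusted p = 0.759), Inha (0.27 ± 0.10, adjusted p = 0.173) and Inhba (0.10 ± 0.19, adjusted p = 0.854) did not pass in either fit. Amh, the hormone of small growing follicles, was at 22.8, 41.4, 33.9 and 32.1 CPM in WT, 52.0, 53.3 and 53.3 CPM in 200M replicates 1, 3 and 4 and 30.5 CPM in replicate 2, and rose only without the last (0.53 ± 0.18, adjusted p = 0.16, and 0.70 ± 0.14, adjusted p = 0.00714).

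Most oocyte genes had estimates above 0, but few passed with all libraries. Of 30 tested, 28 had a log2 fold change above 0, with a median of 0.39, but only Kit passed with all libraries, against 0.878% of all genes. Kit, the receptor for kit ligand, which oocytes and theca cells carry, was at 90.5, 87.0, 73.0 and 85.9 CPM in WT and 142, 120.3, 131 and 119 CPM in 200M, without overlap (0.60 ± 0.08, adjusted p = 0.00298). Described without replicate 2, 16 of the 30 were past the threshold, all higher (2.41% of all genes), and the median was 0.52. Replicate 2 was the 200M library nearest to WT for this list, so this count is no support for a rise. Gdf9, an oocyte growth factor, was at 29.9, 48.2, 43.1 and 34.5 CPM in WT, 50.9, 61.8 and 70.5 CPM in 200M replicates 1, 3 and 4 and 36.6 CPM in replicate 2 (0.49 ± 0.18, adjusted p = 0.187, and 0.64 ± 0.14, adjusted p = 0.0137). The zona pellucida gene Zp3 was at 34.1, 40.1, 45.1 and 30.4 CPM in WT, 48.4, 53.3 and 63.9 CPM in the same 3 libraries and 34.2 CPM in replicate 2 (0.55 ± 0.13 without replicate 2, adjusted p = 0.0188). In replicate 2 these genes lay within the WT range. The count without replicates 2 and 4 was 8 of the 30, beside 296 of 21123 genes raised over all.

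Cell cycle genes lay higher in 200M throughout the list. All 35 on the list had a log2 fold change above 0, with a median of 0.456 against 0.006 over all genes, and 7 passed with all libraries, which is more than the 0.878% of all genes. Described without replicate 2, again the 200M library nearest to WT, the median was 0.53 and 21 of 35 passed (2.41% of all genes). The 200M libraries then lay above WT in 29, against 9.32% of all genes. Cenpe, a kinetochore motor, was at 25.2, 28.2, 30.2 and 29.0 CPM in WT and 42.7, 34.1, 46.7 and 44.5 CPM in 200M (0.57 ± 0.10, adjusted p = 0.0143), and Cdk1, the mitotic kinase, at 13.7, 16.6, 13.3 and 14.4 CPM in WT and 22.5, 16.9, 24.5 and 21.7 CPM in 200M (0.56 ± 0.13, adjusted p = 0.0385). For both, replicate 2 was the lowest 200M library and stood just above the highest WT library. Prc1 (0.54 ± 0.12) and Ccnb2, cyclin B2 (0.55 ± 0.13), rose as well, while Mki67, the common proliferation marker, passed only without replicate 2 (0.39 ± 0.11, adjusted p = 0.0865, and 0.47 ± 0.11, adjusted p = 0.0161). The 7 calls became 14 with DESeq2 and 16 with no filter, 0 with all 12 young ovary libraries (edgeR, 25 at an unadjusted p under 0.05), and 13 without replicates 2 and 4. With 1 library left out they became 0 without WT replicate 1 or 200M replicate 1 (21 and 25 at an unadjusted p under 0.05), 1 without WT replicate 4, 200M replicate 3 or 200M replicate 4, 2 without WT replicate 3 and 6 without WT replicate 2. Over all genes, 169 of 19250 rose with all 8 libraries. With those libraries left out in turn, 31 (200M replicate 1) to 128 (WT replicate 3) rose. The number was 22 of 20347 with all 12 libraries and 296 of 21123 without replicates 2 and 4. It was 224 of 51367 with DESeq2 and 267 of 51368 with no filter. The median log2 ratio to the WT mean in 200M replicates 1 to 4 was 0.481, 0.146, 0.472 and 0.63 for the cell cycle list and 0.373, -0.063, 0.616 and 0.649 for the oocyte list, beside -0.668, -0.303, -0.97 and -0.795 for the luteal list. WT spanned -0.256 to 0.17 for the cell cycle list and -0.227 to 0.307 for the oocyte list, and 200M replicate 2 lay within both ranges. The part that a smaller luteal share of the RNA has in the higher levels was not tested.

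**Figure D3:**
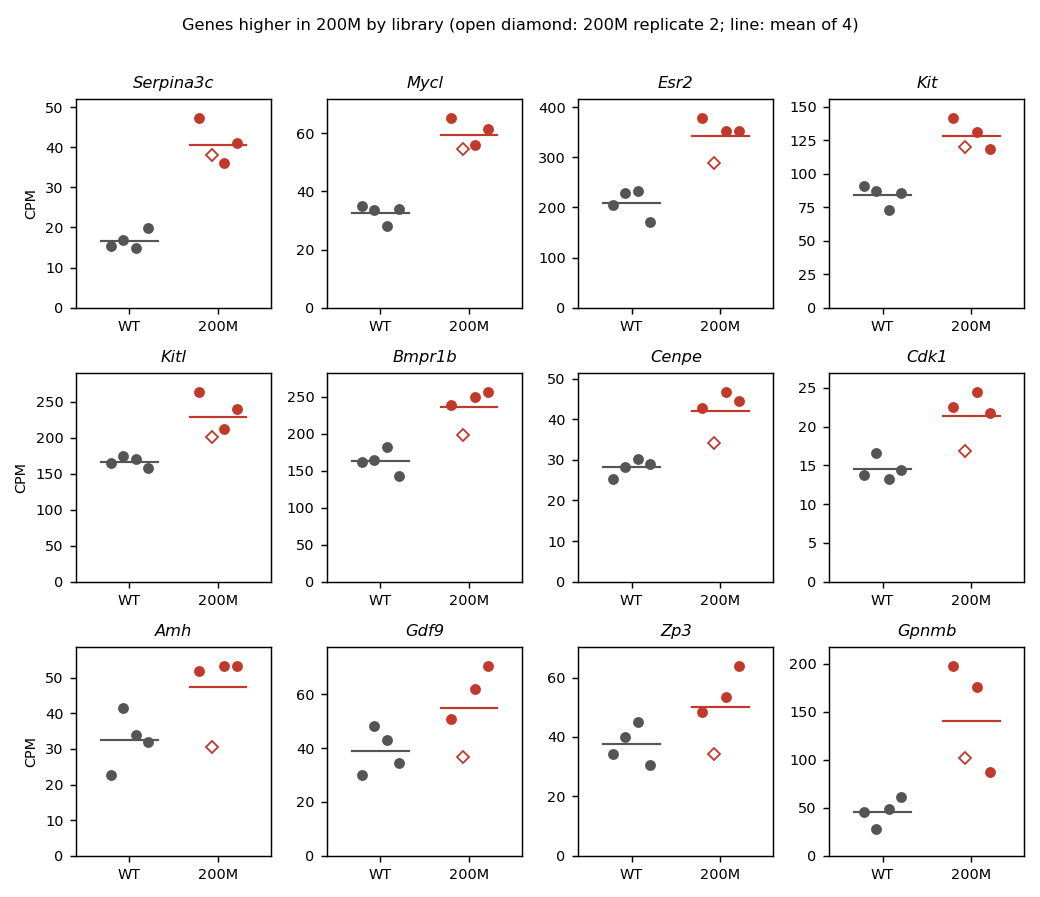
CPM (vertical axis, linear from 0) of 12 genes that were higher in 200M in at least 1 fit, in each WT and 200M library of young ovary, with the mean of 4 as a line and 200M replicate 2 as an open diamond. Serpina3c, Mycl and Esr2 are separated with replicate 2 included, whereas replicate 2 lies within the WT range for Amh, Gdf9 and Zp3.

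A few epithelial genes, the class that ZEB1 represses, were lower in 200M. Of 32 tested, 3 fell with all libraries (Krt7, Rbm47 and Lsr), against 1.7% of all genes, and 5 fell without replicate 2 (3.79%) with the addition of Epcam and Krt19. The median log2 fold change was -0.33 (-0.42 without replicate 2). By library, the list median against the WT mean was -0.208, -0.03 and -0.174 in 200M replicates 1, 2 and 3, within the WT range of -0.272 to 0.273, and -0.731 in replicate 4. With all 12 young ovary libraries none was called by edgeR, with 7 lower at an unadjusted p under 0.05. Lsr, a receptor of tricellular junctions, was at 35.2, 24.6, 33.6 and 35.9 CPM in WT, 12.4, 11.5 and 11.5 CPM in 200M replicates 1, 3 and 4 and 26.9 CPM in replicate 2, which lay within the WT range (-1.03 ± 0.24, adjusted p = 0.037, and -1.47 ± 0.14, adjusted p = 1.66e-05). Rbm47, an epithelial RNA-binding protein, was at 191, 235, 253 and 219 CPM in WT and 136, 174, 101 and 102 CPM in 200M (-0.81 ± 0.15, adjusted p = 0.015), and the keratin Krt7 at 11.6, 14.3, 10.7 and 16.4 CPM in WT and 5.72, 7.57, 6.42 and 4.06 CPM in 200M (-1.14 ± 0.20, adjusted p = 0.0114). The other epithelial genes named most often did not pass with all libraries: Cdh1, E-cadherin (-0.55 ± 0.27, adjusted p = 0.349), Epcam (-1.14 ± 0.29, adjusted p = 0.0532), Rab25 (-0.68 ± 0.39) and the splicing factor Esrp1 (0.10 ± 0.13, adjusted p = 0.768). Cdh1, Epcam and Rab25 were lowest in 200M replicate 4, the library with little oviduct RNA. Without that library Rbm47 changed by -0.71 (adjusted p = 0.0258), Krt7 by -0.99 (adjusted p = 0.0155) and Lsr by -0.90 (adjusted p = 0.0727) on the log2 scale. Without replicates 2 and 4 the number of epithelial genes lowered was 4, beside 625 of 21123 genes over all.

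Because ZEB1 binds E-boxes, the promoters of these genes were searched for CAGGTG on both strands, from 250 bases before to 50 bases after the start (RefSeq, GRCm38.p6). The windows of Lsr and Krt7, lowered epithelial genes that hold it, are printed on the strand of the gene, with the motif in capitals. Their position is a description and no evidence of binding:
Lsr, chr7:30973671-30973700, minus strand: ggcccctctcggCAGGTGgagcacgcccag
Lsr, chr7:30973603-30973632, minus strand: tgactagagcaaCAGGTGgctgcacaggtc
Lsr, chr7:30973521-30973550, minus strand: gaggcaggagcgCACCTGagtcagcccact
Krt7, chr15:101412347-101412376, plus strand: ccgccctgtcccCACCTGtgtgcgctcagc
Lsr held the motif at 4 positions, of which 3 are shown. The motif occurred in 17 (81.0%) of the 21 epithelial genes whose promoters were in the table. The shares were 22.6% of all genes there and 21.6% of the genes tested. Of those 17, only Lsr and Krt7 were lowered with all libraries. The epithelial list holds genes of the class that ZEB1 represses, so its share is no result of these data. Of 16 luteal genes with promoters in the table, 4 held the motif (25.0%). Among genes lowered with all libraries it occurred in 24.1%, and among genes raised in 21.9%, both near the share of all genes tested.

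Some genes of the ovarian surface epithelium, the layer that covers the organ, fell as well. Of 13 tested, 5 fell with all libraries and 6 without replicate 2, against 1.7% and 3.79% of all genes, with medians of -0.498 and -0.62. With all 12 young ovary libraries 1 fell, beside 87 of 20347 genes. Upk1b, a uroplakin, was at 30.4, 31.0, 30.9 and 37.2 CPM in WT and 11.1, 17.3, 12.2 and 16.1 CPM in 200M, without overlap (-1.18 ± 0.14, adjusted p = 0.00168). The membrane mucin Muc16 was at 291, 310.0, 293 and 319.9 CPM in WT and 175, 259, 153 and 194 CPM in 200M (-0.64 ± 0.12, adjusted p = 0.0172). Krt7, Gpm6a (-0.57 ± 0.11) and Lrrn4 (-0.77 ± 0.15) fell too. The defining markers Upk3b (-0.05 ± 0.12, adjusted p = 0.891) and Msln (-0.20 ± 0.19, adjusted p = 0.688) did not pass in either fit. None of the 13 oviduct markers was called by edgeR or DESeq2 in either fit. With all libraries none reached an unadjusted p under 0.05 (median -0.145), and without replicate 2 a total of 2 did with each tool, both lower (median -0.41). Without replicates 2 and 4, 5 surface epithelium genes fell, beside 625 of 21123 genes.

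**Figure D4:**
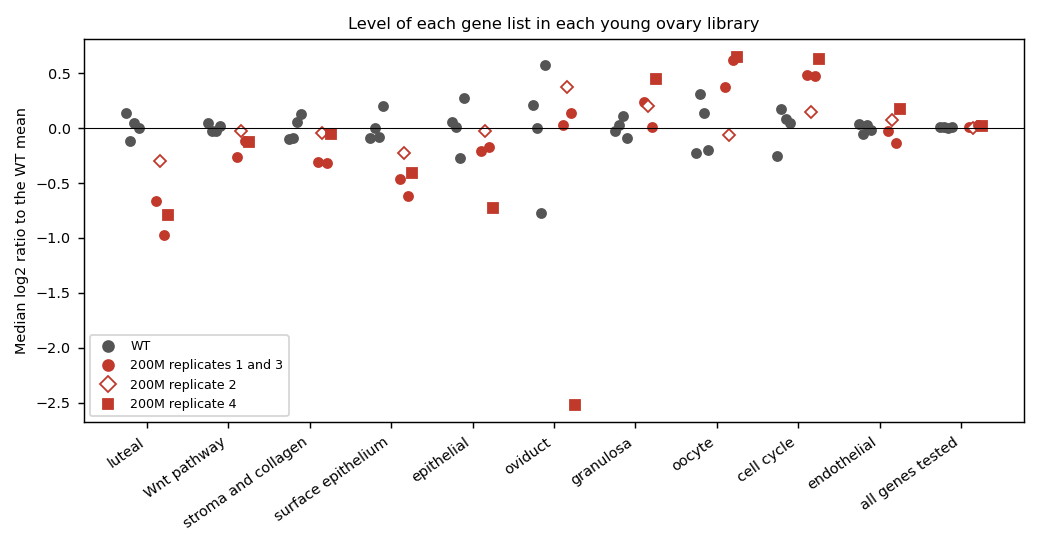
Median over the tested members of a list of the log2 ratio to the WT mean (vertical axis, from CPM + 0.5) for 10 gene lists and all genes tested (horizontal axis), 1 point per young ovary library. Luteal and surface epithelium medians are below 0 in all 200M libraries, 200M replicate 2 is the 200M library nearest to WT for the luteal, oocyte and cell cycle lists, and 200M replicate 4 stands at -2.52 for oviduct markers.

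Some genes that respond to the luteinizing hormone surge were lower in 200M. Ptgs2, which the surge induces, was at 1.36 to 2.94 CPM in WT and 1.15 to 2.84 CPM in 200M, and Pgr, the progesterone receptor, at 52.8, 60.6, 83.2 and 114 CPM in WT and 77.2, 71.0, 45.9 and 43.6 CPM in 200M (-0.39 ± 0.23, adjusted p = 0.446). Of 25 ovulatory genes tested, 3 fell, namely the aggrecanase Adamts4 (-0.76 ± 0.14), the metallothionein Mt1 (-0.50 ± 0.10) and the protease inhibitor Timp1 (-0.97 ± 0.22), against 1.7% of all genes, and without replicate 2 a total of 5 fell and 1 rose (3.79% and 2.41%). The summed list was at 2625, 2420, 2712 and 2586 CPM in WT and 2206, 2362, 2070 and 2267 CPM in 200M, without overlap, although with all 12 young ovary libraries none was called by edgeR, with 5 lower at an unadjusted p under 0.05. The next lists stand against the same shares of all genes, 1.7% lower and 0.878% higher with all libraries and 3.79% and 2.41% without replicate 2. Among 22 immediate early genes, 2 fell, Jun (-0.61 ± 0.13) and Zfp36 (-0.48 ± 0.11), and 3 fell without replicate 2. Among 26 matrix proteases and their inhibitors, 4 fell and 2 rose (6 and 3 without replicate 2), which besides Adamts4 and Timp1 included Adamts12 (-0.35 ± 0.07) and Mmp16 (-0.45 ± 0.10) among those lowered and Serpine2 and Adamts5 among those raised. Of 19 receptors for steroid and peptide hormones, Prlr fell and Esr2 rose, and without replicate 2 Ptgfr and Oxtr, the oxytocin receptor (-0.40 ± 0.11), were added to those lowered.

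Immune cell genes changed in both directions. Of 28 macrophage and complement genes, 3 fell and 1 rose (5 and 2 without replicate 2), against 1.7% and 0.878% of all genes (3.79% and 2.41%). Gpnmb, a lysosomal glycoprotein of phagocytes, rose from 45.4, 27.9, 48.6 and 61.1 CPM in WT to 198, 102, 176 and 87.0 CPM in 200M (1.61 ± 0.26, adjusted p = 0.00706). The chemokine receptor Ccr2 (-0.74 ± 0.13), the mannose receptor Mrc1 (-0.51 ± 0.10) and the integrin Itgam (-0.66 ± 0.14) fell, while the defining marker Csf1r was at 27.1 ± 3.002 and 24.6 ± 1.96 CPM (-0.15 ± 0.10, adjusted p = 0.562). Of 16 antigen presentation genes 2 fell in each fit, against 1.7% and 3.79% of all genes, the class II genes H2-Aa (-0.58 ± 0.08, adjusted p = 0.00455) and H2-Ab1 (-0.46 ± 0.09, adjusted p = 0.0169).

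Stromal genes were called mainly without 200M replicate 2. Of 24 collagen and stroma genes, Col6a1 fell with all libraries (-0.37 ± 0.09, adjusted p = 0.0497) and 8 fell without replicate 2, where the median was -0.29, against 1.7% and 3.79% of all genes. The first 2 of these by p were Col3a1 (-0.66 ± 0.09) and Postn, periostin (-1.06 ± 0.20). Mesenchymal genes, which ZEB1 is known to favour, were not raised as a group. With all libraries none of 16 was called by edgeR or DESeq2 (4 and 5 had an unadjusted p under 0.05, all lower). Without replicate 2 a total of 4 of 17 fell, Fn1, S100a4, Sparc and Vim, and Snai2 rose (0.27 ± 0.07), against 3.79% and 2.41% of all genes. In the theca and interstitial list of 13, Aldh1a1 fell (-0.45 ± 0.10), against 1.7% of all genes, and without replicate 2 Ptch1 rose, against 2.41%. The theca hormone gene Insl3 was at 6.45, 6.24, 5.85 and 4.87 CPM in WT and 6.08, 6.42, 16.3 and 8.82 CPM in 200M (0.65 ± 0.27, adjusted p = 0.256). In the TGF-beta family list of 42, Bmpr1b rose with all libraries, against 0.878% of all genes. Without replicate 2, 4 rose and 1 fell, against 2.41% and 3.79%.

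Endothelial and contractile genes gave few calls. None of 30 endothelial genes was called by edgeR or DESeq2 in either fit, with 4 (edgeR) and 2 (DESeq2) at an unadjusted p under 0.05 with all libraries, all higher. Cdh5, VE-cadherin, was at 121 ± 10.1 CPM in WT and 141 ± 7.91 CPM in 200M (0.22 ± 0.07, adjusted p = 0.139), and Pecam1 at 83.7 ± 4.79 and 81.3 ± 11.7 CPM (-0.04 ± 0.09). None of 14 smooth muscle and pericyte genes was called with all libraries by either tool, with 3 (edgeR) and 2 (DESeq2) at an unadjusted p under 0.05. Actg2 fell without replicate 2 (-0.61 ± 0.17), against 3.79% of all genes. Of 13 fat genes, Plin4 (-1.01 ± 0.15) and Pck1 (-1.03 ± 0.18) fell in both fits, against 1.7% and 3.79% of all genes, but the fat cell markers Adipoq (-0.53 ± 0.23, adjusted p = 0.278) and Plin1 (-0.14 ± 0.16, adjusted p = 0.741) did not pass. Of the red blood cell genes 3 were tested and none was called or had an unadjusted p under 0.05 in edgeR or DESeq2. Hbb-bs was at 10.4 to 19.1 CPM in WT and 7.67 to 17.3 CPM in 200M.

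**Figure D5:**
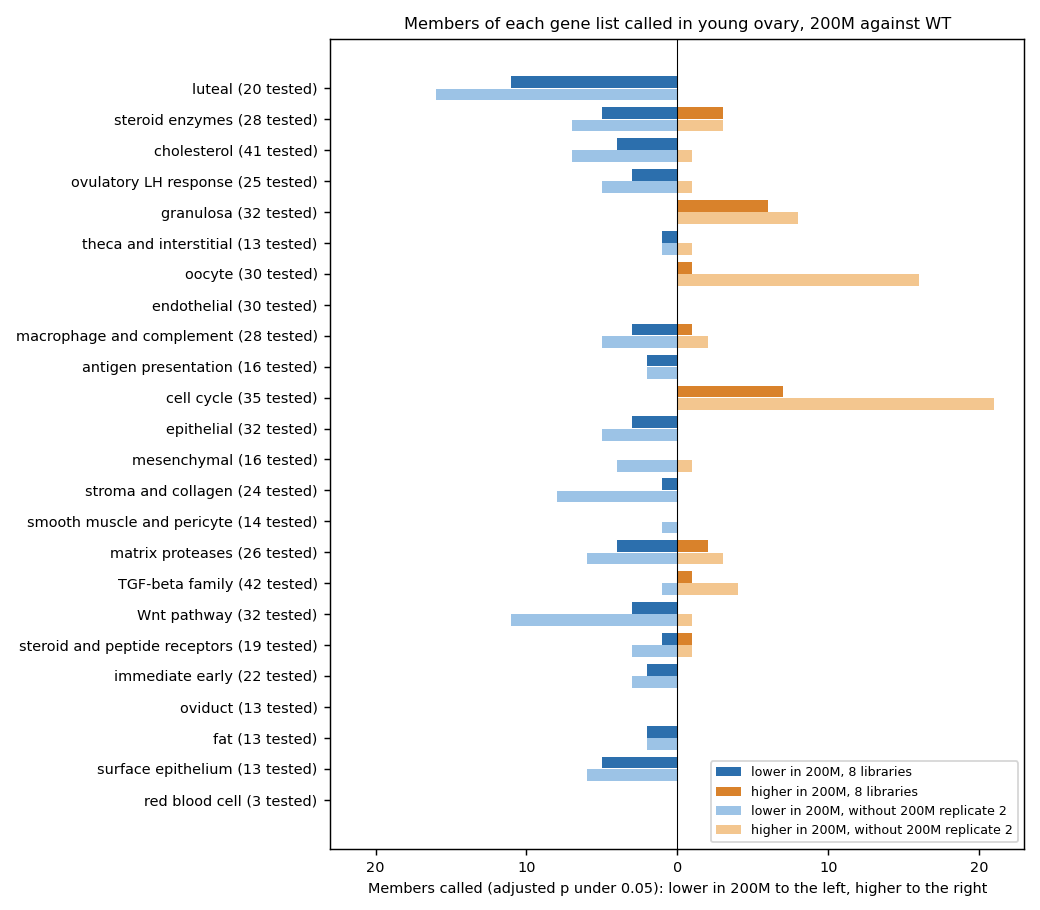
Members of 24 gene lists called at an adjusted p under 0.05 (horizontal axis, lower in 200M to the left and higher to the right), with all 8 libraries (dark) and without 200M replicate 2 (light), with the number tested in the fit of 8 beside each name. The luteal list has 11 and 16 members lowered, and the cell cycle list 7 and 21 raised.

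Ovaries with 1 mutated allele (Zeb1_200H), sequenced with the same WT libraries as controls, were below WT in each library for the 4 genes given here, by amounts that varied. In the 4 young 200H libraries Sfrp4 was at 15.7, 178, 30.9 and 189 CPM, Akr1c18 at 1.65, 12.1, 13.9 and 58.4 CPM, Ptgfr at 16.4, 122, 19.7 and 107 CPM and Star at 43.3, 83.2, 70.2 and 88.4 CPM. For each of these genes 200H replicate 1 was the lowest of the 4. That library also had the oviduct marker Ovgp1 at 11.8 CPM. Over the luteal list, the median log2 ratio to the WT mean in 200H replicates 1 to 4 was -0.638, -0.418, -0.732 and -0.678. In 200M replicates 1 to 4 it was -0.668, -0.303, -0.97 and -0.795. The summed ovulatory list was at 2249, 2282, 2271 and 2211 CPM in 200H, below the lowest WT library at 2420 CPM. Over the Wnt list the 200H medians were -0.199, -0.114, -0.159 and -0.166, below the lowest WT median of -0.027. For surface epithelium they were -0.677, -0.05, -0.301 and -0.359, with replicate 2 within the WT range of -0.086 to 0.202. For cell cycle genes only 200H replicate 1, at 0.575, lay above the highest WT median of 0.17. The lower luteal and ovulatory levels, and those of the Wnt list, were thus not particular to 200M.

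The same genotypes were compared in ovaries of an older cohort, females 28 to 36 weeks old that had been through a breeding trial. Those libraries were made from poly(A) RNA, without strand information and read from 1 end, so age, breeding and chemistry cannot be told apart, and the difference between cohorts was not tested. In that cohort 482 of 17792 genes were called (2.71%), 211 lower (1.19%) and 271 higher (1.52%). Of the 497 genes called in young ovary, 468 were tested there, and 76 were called in the same direction, 58 lower and 18 higher, which is 15.3% of the young calls and 15.8% of the older ones. No gene was called in opposite directions. Without 200M replicate 2, 151 genes were shared, 12.4% of the 1214 young calls and 31.3% of the older ones.

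Luteal genes were low in the older 200M ovaries too. Sfrp4 was at a mean of 2859 CPM in older WT and 27.9 CPM in older 200M (-6.68 ± 0.37, adjusted p = 0.000378), Ptgfr at 848 and 5.05 CPM (-7.37 ± 0.60, adjusted p = 0.00152), and Akr1c18 at 1814 and 4.06 CPM (-8.80 ± 0.99, adjusted p = 0.00482). Of the 20 luteal genes 8 were called there, all lower, with a median of -1.47. Star fell by 3.77 ± 0.64 on the log2 scale in the older ovaries (adjusted p = 0.0222), whereas Cyp11a1 (-1.41 ± 0.42, adjusted p = 0.125) did not pass. The genes raised in young ovary differed in how they fared: Kcng4 (2.88 ± 0.19, adjusted p = 0.000514), Csdc2 (0.84 ± 0.11), Gpnmb (3.72 ± 0.75) and Kit (0.94 ± 0.21, adjusted p = 0.0493) were called in both cohorts, while Esr2 (-0.06 ± 0.26, adjusted p = 0.923) and Mycl (0.28 ± 0.36, adjusted p = 0.716) were not. The cell cycle list had a median of 0.013 in the older ovaries, with no gene called and none at an unadjusted p under 0.05 in edgeR. Other lists stood on the opposite side of 0 in the older ovaries, those of oviduct and fat among them. Of 13 oviduct markers 9 were below 0 in young ovary, and all 10 tested in older ovary were above 0. Of 13 fat genes 12 were below 0 in young ovary, and 10 of 12 were above 0 in older ovary. No member of either list was called by edgeR in the older ovaries. The epithelial median was -0.332 in young and 0.88 in older ovaries, where 27 of 34 were above 0 and 1 fell, the macrophage and complement median -0.165 and 0.912, with 7 of 28 raised in the older ones, the antigen presentation median -0.31 and 0.668, with 4 of 16 raised, and the granulosa median 0.211 and -0.192, with none of 32 called by edgeR and 4 at an unadjusted p under 0.05. These differences between cohorts were not tested. The part that RNA of oviduct or fat has in the older epithelial median was not tested either.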

How the data were processed

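Total RNA from ovary was depleted of ribosomal RNA and made into stranded paired-end libraries. The deposited values are raw counts per gene, which the authors made by aligning reads to mm10 with STAR 2.7.1a and counting them on the stranded setting with featureCounts over GENCODE M25 basic genes. The same tables hold the authors' normalized values and DESeq2 fold changes and p-values, which were not used. The 6337205 to 12896366 counts of each library were tested anew with edgeR 4.0.16 in R 4.3.3: filterByExpr, TMM factors and the quasi-likelihood F test of 4 200M against 4 WT libraries, with Benjamini-Hochberg adjustment over all genes tested and a threshold of 0.05. CPM are counts per 1000000 of the scaled library, and positions are those of mm10. Fold changes are 200M over WT with their SE.

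Genes named were the 12 of smallest p and 6 of largest change per direction among those called at 1 CPM or more, up to 4 called members of each of 24 gene lists (2 where none was called), and key genes. Genes named only from the fit without 200M replicate 2 were chosen after their values were seen. The members and lists were chosen with earlier results of these data known. Alternatives were DESeq2 1.42.0, its size factors, no filter, all 12 young ovary libraries, a replicate block and leaving out each library. The test was checked on simulated counts. The study's methods call the replicates biological. Within young WT and within young 200M, no pair of libraries had counts agreeing within sampling noise.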

Additional observations from a re-analysis of the deposited data

Results flagged for a closer look

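Of 246 groups of 4 libraries examined, 22 held a library whose gap to the nearest other exceeded Dixon's critical share of the group's range. Chance flags about 1 in 20 groups, and genes of 1 library are not independent. Of the 22, 13 concerned 200M replicate 2. It was far above the other 200M libraries for Star (117.6 CPM against a median of 31.4 in the other 3), Ptgfr (100.4 against 7.27), Akr1c18 (24.4 against 0.596), Runx2 (117 against 16.2), Sfrp4 (234 against 7.32), Onecut2 (53.6 against 3.25), Lgr5 (34.0 against 14.5), Wnt2b (15.8 against 10.6), Lsr (26.9 against 11.5) and Mt1 (369 against 288). It was also above them for the summed Wnt list (2160 against 1728 CPM), and below them for Amh (30.5 against 53.3) and the summed red blood cell list (12.0 against 23.1 CPM).

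The WT libraries gave 6 cases. WT replicate 2 was low for Hsd3b1 (3550 CPM against a median of 4327 in the others), Mt1 (352 against 464), Aldh1a1 (981 against 1257), the summed theca and interstitial list (4262 against 5227) and the summed receptor list (5264 against 6477), and WT replicate 4 was high for Upk1b (37.2 against 30.9). Among the other 200M libraries, replicate 3 was low for Fshr (68.1 against 88.4), and replicate 1 low for Sptb (33.8 against 37.2) and high for the summed antigen presentation list (2044 against 1686).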

How the results depend on the processing

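The 497 calls (328 lower, 169 higher) became 501 with DESeq2's size factors and 632 (408 and 224) with DESeq2. They became 845 (578 and 267) with no filter, 109 (87 and 22) with all 12 young ovary libraries in 1 fit, and 150 (110 and 40) with a replicate block. Chosen after seeing the data, DESeq2 without 200M replicate 2 gave 1109 (782 and 327) and edgeR without 200M replicates 2 and 4 gave 921 (625 and 296). Leaving out 1 library gave 112 to 1214 calls (81 to 742 lower, 31 to 472 higher). The count moved by over 1.5 times without WT replicate 1 (158), WT replicate 3 (304), WT replicate 4 (175), 200M replicate 1 (112), 200M replicate 2 (1214), 200M replicate 3 (174) and 200M replicate 4 (296). The cause was not tested.

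List genes called (57) were 120 with no filter, 25 with the block, 11 with 12 libraries, 125 and 113 in the added fits, and 16 to 132 with 1 library left out. Calls shared with the older ovaries (76) were 133, 37, 25, 137 and 145 in the same order, and 24 to 151. With the block, calls became 1 for the cell cycle list (7), 2 for granulosa (6) and 1 for epithelial genes (3). With no filter Akr1c18 had an adjusted p of 1.25e-154 against 0.0152 with the filter, so the counts of that fit need care. Luteal genes lowered (11) were 3 with the block, 3 with 12 libraries, and 2 to 16 with 1 library left out. After centring within each genotype, same-numbered libraries correlated at 0.005, -0.228, -0.383 and -0.181, and differently numbered ones at -0.131 to 0.225. These values show no positive pairing by number. Whether same-numbered libraries share a litter, cage or batch was not tested.

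Of 114 named genes, 38 kept their call and direction under every alternative, 29 of them called. Direction reversed in 10 genes that were not called, over these log2 fold changes with 1 library left out: Cyp17a1 from -0.22 to 0.34, Ovgp1 from -0.22 to 0.43, Gm13648 from -0.41 to 0.22, Dnah5 from -0.53 to 0.13, Hbb-bs from -0.22 to 0.13, Hsd3b1 from -0.17 to 0.048, Lhcgr from -0.45 to 0.013, Pecam1 from -0.12 to 0.053, Inhba from -0.012 to 0.30 and Foxl2 from -0.066 to 0.17. The block reversed Cyp17a1 (0.038) and Ovgp1 (-0.26), and DESeq2 without 200M replicate 2 reversed Cyp17a1 (0.029), Ovgp1 (-0.24) and Hbb-bs (0.10). Leaving out 200M replicates 2 and 4 reversed Gm13648 (0.053), Dnah5 (0.028), Hbb-bs (0.12), Inhba (-0.14) and Foxl2 (-0.058).

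Depth of 6337205 to 12896366 counts limits genes near 1 CPM, which rest on few counts. The number of libraries, 4 a group, limits what can be called where 1 library stands apart.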
